A study of Mus musculus with 4 samples.

Results

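The proteasome subunit genes are the mouse genes with the symbols *Psma*, *Psmb*, *Psmc* or *Psmd* followed by a number, without the immunoproteasome genes *Psmb8*, *Psmb9* and *Psmb10*. The rule selected 36 of the 39179 genes in the count data, 16 of them genes of the 20S core particle and 20 of them genes of the 19S regulatory particle. The RNA-seq data came from B16F1 cells, a mouse melanoma cell line. The 2 control libraries were made from parental B16F1 cells. The 2 TRC libraries were made from tumor repopulating cells (TRCs), which are the cells that formed spheroids after B16F1 cells were seeded in soft 3D fibrin gels of 90 Pa, and which were taken out of the gels on day 5. Both groups are the same line without any genetic change named in the labels, so the groups differ in the culture and in the selection of cells that grew in it, and these cannot be told apart. The labels do not say whether replicates 1 and 3 of a group came from separate cultures, so p-values measure only the spread between these libraries.

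The proteasome degrades proteins that carry ubiquitin chains. Its barrel, the 20S core, is a stack of rings, with alpha subunits on the outside that gate the entry and beta subunits on the inside, some of which cut peptide bonds. The 19S regulatory particle sits on the end of the barrel, where its lid and base recognise ubiquitin, remove it, unfold the substrate and push it into the core. Because the subunits are used in fixed proportions, their genes are known to be co-regulated, and the CNC-bZIP factor NRF1 (*Nfe2l1*) is known to raise them together when proteasome activity is short. In bulk RNA, fewer cells expressing a gene and less RNA per cell cannot be told apart.

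The promoters of *Psmb5*, *Psmb6* and *Psmd9* are shown because they hold the letters TGACNNNGC, the type of antioxidant response element that CNC-bZIP factors bind. The windows are 150 bases upstream of the start site in the RefSeq promoter table (GRCm38.p6), 5′ to 3′ on the strand of the gene, with the motif in capitals. *Psmb5* is shown at chr14:54618023-54618172 on the minus strand, where 27 bases next to the start site are left out and the motif begins 47 bases upstream of it. *Psmb6* is shown at chr11:70525207-70525356 on the plus strand, with the motif beginning 9 bases upstream. *Psmd9* is shown at chr5:123228040-123228189 on the plus strand, with the motif beginning 31 bases upstream. In GENCODE M21 this window lies just before the protein-coding transcript of *Psmd9* and in an intron of a longer transcript that is not protein-coding.
Psmb5: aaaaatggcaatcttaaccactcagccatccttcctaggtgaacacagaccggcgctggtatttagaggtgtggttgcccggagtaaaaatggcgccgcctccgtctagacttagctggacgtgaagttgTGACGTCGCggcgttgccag
Psmb6: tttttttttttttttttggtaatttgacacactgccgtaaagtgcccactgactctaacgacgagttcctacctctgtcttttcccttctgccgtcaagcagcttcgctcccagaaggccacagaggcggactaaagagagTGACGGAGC
Psmd9: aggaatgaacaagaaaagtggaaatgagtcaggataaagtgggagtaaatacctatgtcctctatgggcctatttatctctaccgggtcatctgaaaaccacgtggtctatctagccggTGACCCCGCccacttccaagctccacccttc

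Of the 36 genes, 29 were found in the promoter table, with 31 promoters. The other 7 were not searched, namely *Psma8*, *Psmb1*, *Psmb2*, *Psmb7*, *Psmc3*, *Psmd3* and *Psmd7*. In the 250 bases upstream of the start, searched on both strands, TGACNNNGC was found in 5 of the 31 promoters (16.1%), those of *Psmb5*, *Psmb6*, *Psmc6*, *Psmd12* and *Psmd9*, against 10.2% of 32851 promoters of all genes. The E-box CACGTG was found in 2 (6.45%, against 6.02% of all), and in *Psmd9* it does not overlap the other motif. The NF-Y box CCAAT was found in 12 (38.7%, against 33.8% of all). A match describes the letters and not a bound site.

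Of the 36 genes, 34 passed the filter on low counts, which asks for at least 1 CPM in 2 or more of the 4 libraries. CPM are counts scaled to the size of the library, for the values below with edgeR's TMM factors. The genes that did not pass were *Psma8*, an alpha subunit known from testis, and *Psmb11*, a catalytic subunit known from the thymus. Both had 0 counts in all 4 libraries, where the limit of 3 counts corresponds to between 0.0675 and 0.0850 CPM for counting error only. Of the 34, 8 overlap a gene on the opposite strand in GENCODE M21 (*Psma4*, *Psma5*, *Psmb7*, *Psmc3*, *Psmd1*, *Psmd3*, *Psmd9* and *Psmd13*), and *Psmb5* and *Psmd1* overlap one on the same strand. The strand setting of the counting is not given in the sources used here, and the part of these neighbours in the counts was not tested. The 34 subunits were expressed in each library, with group means between 24.9 and 515 CPM. The libraries held between 35948295 and 43511554 counts on genes. Markers of the melanocyte lineage were present in each library, with 7 of 7 tested and a summed level of 15712 to 18915 CPM in parental cells and 23969 to 26669 CPM in TRCs, while those of leukocytes summed to between 1.88 and 4.32 CPM, with *Ptprc* at 0 counts in every library. Those of fibroblasts summed to 9.83 and 11.4 CPM in parental cells and to 3.12 and 5.82 CPM in TRCs, and those of endothelium to at most 0.198 CPM, with *Cdh5* and *Kdr* at 0 counts. The melanocyte and fibroblast sums therefore moved with the groups, but a single gene made up much of each move. *Dct* went from a mean of 5014 CPM in parental cells to 10591 CPM in TRCs, and *Col1a2* from 7.25 to 1.26 CPM. All 7 melanocyte genes had a log2 fold change above 0, but the groups overlapped for 5 of them. Of the 3 fibroblast genes tested, the groups overlapped for 2. The part of these markers in the results was not tested.

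No proteasome subunit gene was called different between TRCs and parental cells by the exact test with TMM scaling. Nearly every one of them had a somewhat lower value in TRCs. With edgeR's exact test and Benjamini-Hochberg adjustment over 11483 genes, 0 of 34 were called lower and 0 of 34 higher at an FDR of 0.05, where 7.05% of all genes tested were called lower and 8.81% higher. At an unadjusted p of 0.05 by the same exact test, 3 of 34 were lower and 0 were higher, where 13.2% and 14.8% of all genes were. DESeq2's Wald test called 2 of the 34 lower (8.24% of all genes), and the quasi-likelihood test of edgeR called 0 in either direction (4.24% of all genes lower and 4.94% higher).

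The log2 fold change of TRCs over parental cells was below 0 for 31 of the 34 genes, whether libraries were scaled by TMM, by DESeq2 size factors or by library size alone, while 5710 of the 11483 genes tested were below 0. Its median was −0.28, a fold of 0.822, beside a median of 0.0034 for all genes tested. The values lay in a narrow range, from −0.63 to 0.11, with an SD over genes of 0.18 against 0.71 for all genes tested. These SDs were not matched for expression level, since 6599 of the 11483 genes tested had a mean CPM within the range of the members. Both TRC libraries lay below both parental libraries for 17 of 34 genes, where 30.4% of all genes tested did so, and the reverse order was found for 0 of 34, where 30.2% did so. The groups overlapped for the other 17 genes. The members share libraries and are not independent of each other, so these counts describe the 4 libraries and carry no p-value.

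**Figure D1:**
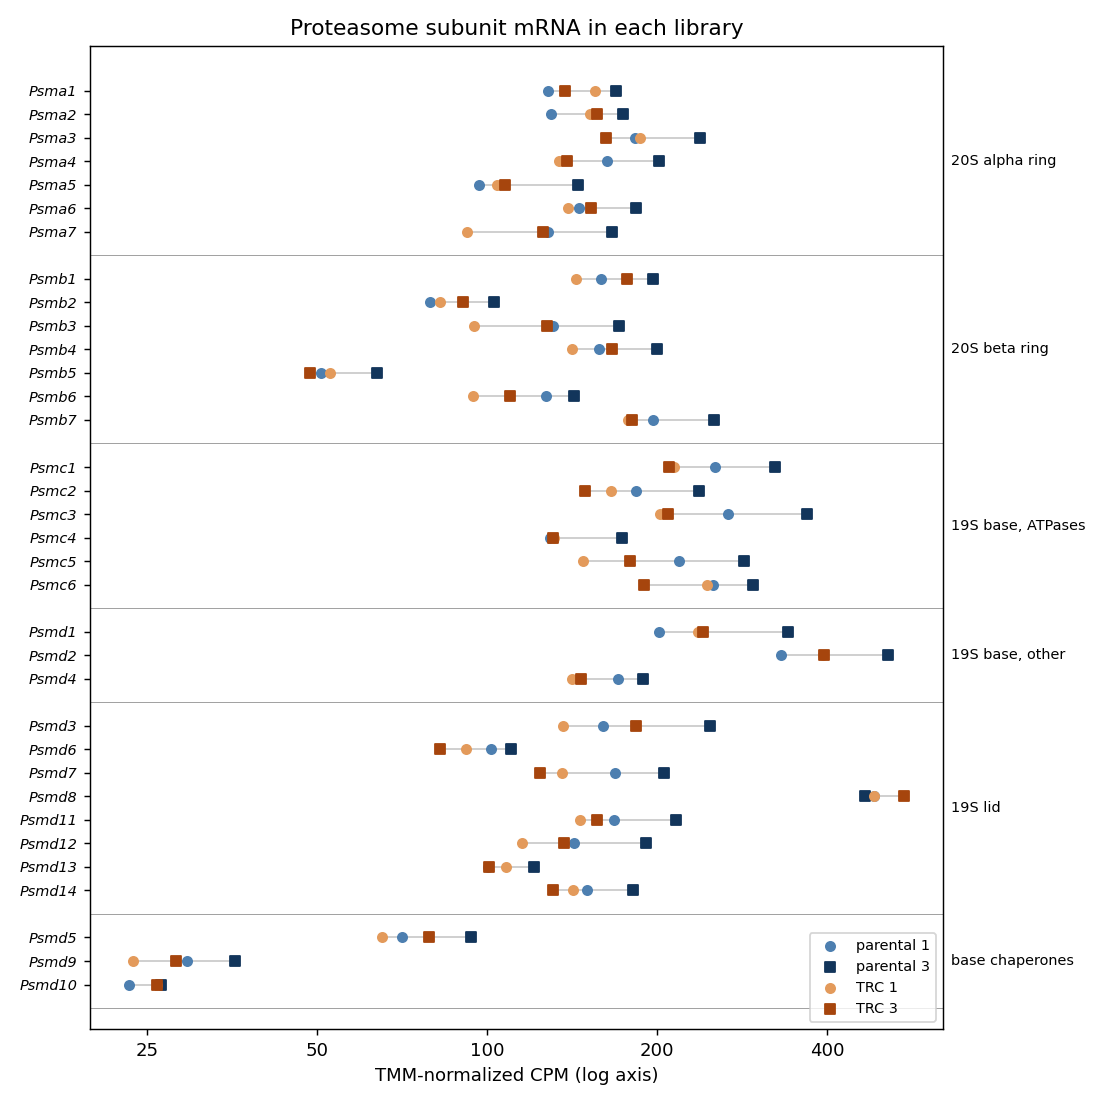
TMM-normalized CPM (log axis) of the 34 expressed proteasome subunit genes in each of the 4 libraries, blue for parental and orange for TRC, with circles for replicate 1 and squares for replicate 3. The dark blue squares of parental replicate 3 are the highest point for 33 of 34 genes, *Psmd8* being the exception.

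The fold changes must be read beside parental replicate 3. It was the highest of the 4 libraries for 33 of the 34 genes. The share of all genes that were highest in it was not computed. It was above parental replicate 1 for the same number, where 5791 of the 11483 genes tested were. The log2 difference, replicate 3 minus replicate 1, had a median of 0.36. Over all genes tested its median was 0.0042 and its 75th percentile 0.23. Between the TRC libraries the same signed difference had a median of 0.047. Differences in opposite directions cancel in this median, since 22 of 34 genes were above 0. Single genes ranged from −0.37 (*Psmc6*) to 0.44 (*Psma7*). Summed over the expressed subunits, the level was 5482 CPM in parental replicate 1 and 7030.0 CPM in parental replicate 3, against 5101 and 5328 CPM in TRC replicates 1 and 3. Both TRC libraries were thus below both parental libraries in the sum, but parental replicate 1 lay nearer to the TRCs than to the other parental library.

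**Figure D2:**
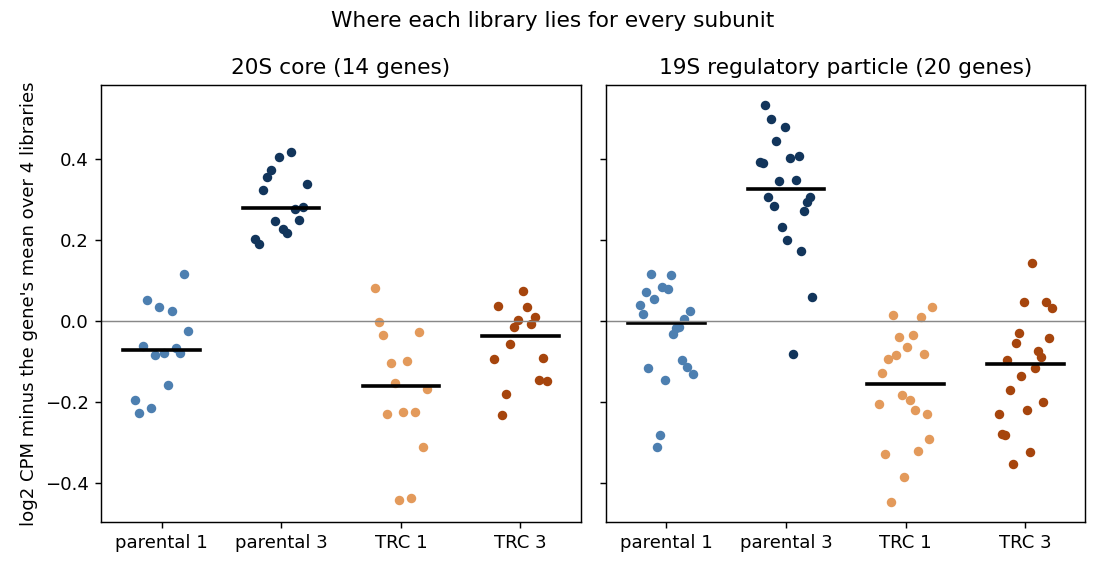
For each expressed gene of the 20S core (14 genes) and the 19S regulatory particle (20 genes), the log2 CPM in a library minus the mean of that gene over the 4 libraries, with bars at the medians. Parental replicate 3 stands above the other libraries in both particles, and the points of parental replicate 1 overlap with those of the TRC libraries.

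Without parental replicate 3 the median of the 34 genes was −0.10, with 21 genes below 0 and 13 above, and without parental replicate 1 it was −0.45, with 33 genes below 0. Leaving out TRC replicate 1 or TRC replicate 3 gave medians of −0.25 and −0.33. The lower level in TRCs therefore kept its sign in the median when any single library was left out, and its size moved by more than 1.5 times with either parental library.

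The 20S core had a median nearer to 0 than the regulatory particle. Of its 14 expressed genes, 13 had a log2 fold change below 0, the median was −0.20 (a fold of 0.868), 0 had an unadjusted p under 0.05 in the exact test (13.2% of all genes were lower at this p), and both TRC libraries lay below both parental libraries for 5, a share near the 30.4% of all genes tested. The core summed to 1876 and 2408 CPM in parental replicates 1 and 3 and to 1751 and 1881 CPM in TRC replicates 1 and 3, so TRC replicate 3 lay just above parental replicate 1. Without parental replicate 3 the median was −0.021.

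Of the alpha ring genes, which build the gated outer rings, 6 of 7 were below 0, with a median of −0.19. *Psma2* had the highest log2 fold change of the core, with 130.1 and 174 CPM in parental replicates 1 and 3 and 152 and 156 CPM in TRC replicates 1 and 3 (log2 fold change 0.02 ± 0.22 (SE), FDR 0.967 in edgeR's exact test). The TRC values fell between the parental ones. *Psma7* and *Psma4* were the lowest of the ring, at −0.43 and −0.42, with FDR values of 0.249 and 0.224.

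In the beta ring, 7 of 7 genes were below 0, with a median of −0.22. *Psmb5* encodes the chymotrypsin-like subunit, the main target of proteasome inhibitors such as bortezomib. It was measured at 50.9 and 63.9 CPM in parental replicates 1 and 3 and at 52.8 and 48.6 CPM in TRC replicates 1 and 3, a log2 fold change of −0.18 ± 0.23 (SE) with an FDR of 0.669. The groups overlapped, since TRC replicate 1 was above parental replicate 1.

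*Psmb6*, the caspase-like subunit, was at 127 and 142 CPM in parental replicates 1 and 3 and at 94.4 and 109.8 CPM in TRC replicates 1 and 3. For *Psmb7*, the trypsin-like subunit, the values were 196 and 253 CPM against 178 and 180.2 CPM in the same order. Both genes had lower values in both TRC libraries than in either parental library. Their log2 fold changes were −0.40 ± 0.21 and −0.33 ± 0.22 (SE), with FDR values of 0.243 and 0.376 in the exact test.

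*Psmb3*, a structural beta subunit that does not cut, had the lowest log2 fold change of the core, −0.44 ± 0.25 (SE), FDR 0.242. It was measured at 131 and 172 CPM in parental replicates 1 and 3, and at 94.8 and 128 CPM in TRC replicates 1 and 3. The groups did not overlap, but TRC replicate 3 and parental replicate 1 were close.

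The 19S regulatory particle had a lower median than the core, −0.33 (a fold of 0.798), with 18 of 20 genes below 0. Both TRC libraries lay below both parental libraries for 12 of 20 genes, against 5 of 14 in the core and 30.4% of all genes tested. The ratio of summed 19S to summed core levels was 1.92 in each parental library and 1.91 and 1.83 in TRC replicates 1 and 3. With 2 libraries against 2, the smallest p an exact permutation test of this ratio allows is 0.333, and no test of the difference was made. Without parental replicate 3 the 19S median was −0.16, and without parental replicate 1 it was −0.46.

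**Figure D3:**
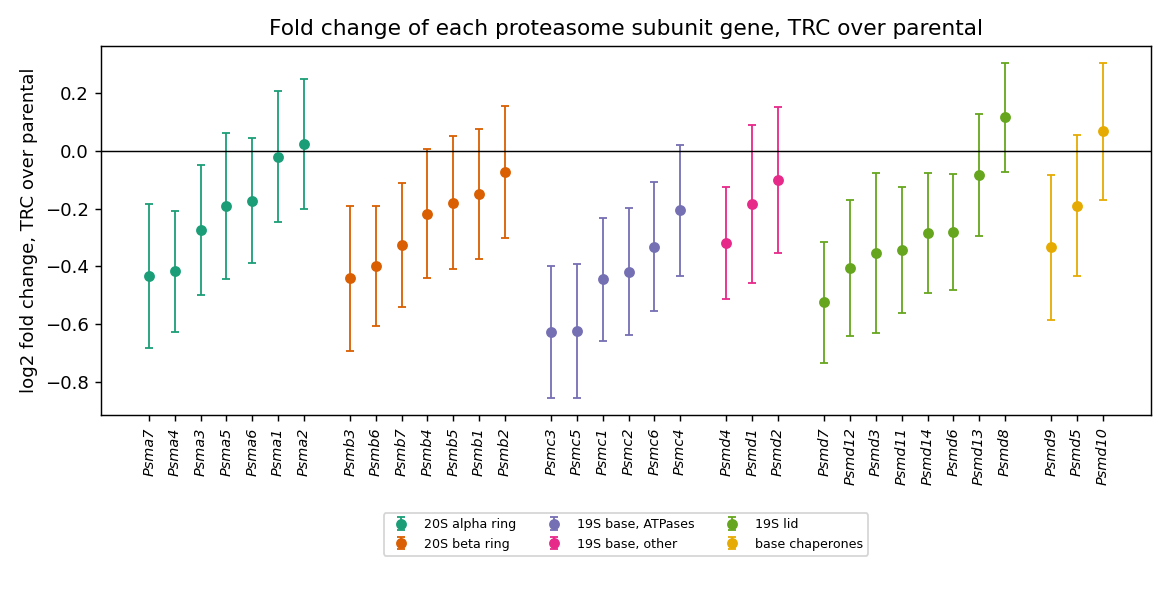
Log2 fold change of TRCs over parental cells for the 34 expressed genes, in the order of the value within each group of subunits; bars are standard errors from DESeq2 with 2 libraries per group. The ATPases *Psmc3* and *Psmc5* are the lowest points, at −0.63 and −0.62, and 3 genes lie above 0.

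The ATPases of the base, *Psmc1* to *Psmc6*, form the ring that unfolds the substrate and opens the gate of the core. They had the lowest median of the groups of subunits described here, with 6 of 6 below 0, a median of −0.43 (a fold of 0.742), and both TRC libraries below both parental libraries for 5 of 6, *Psmc4* being the exception, where 30.4% of all genes tested had this order. They summed to 1303 and 1683 CPM in parental replicates 1 and 3 and to 1106 and 1068 CPM in TRC replicates 1 and 3.

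*Psmc3* (ENSMUSG00000002102, chr2:91054009-91066369 on the plus strand of GRCm38) had the lowest log2 fold change of the 34 subunits. Its levels were 267 and 368 CPM in parental replicates 1 and 3 and 202 and 209 CPM in TRC replicates 1 and 3. The TRC libraries were close to each other and both below the parental ones, which were far apart. The log2 fold change was −0.63 ± 0.23 (SE), with an unadjusted p of 0.00998 and an FDR of 0.0593 in the exact test, just outside the threshold. It is 1 of the 8 genes with an overlapping gene on the opposite strand, here *Slc39a13*.

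*Psmc5* (ENSMUSG00000020708, chr11:106256154-106263120, plus strand) followed, with 218 and 285 CPM in parental replicates 1 and 3 and 148 and 179 CPM in TRC replicates 1 and 3. The groups did not overlap, and the log2 fold change was −0.62 ± 0.23 (SE) with an FDR of 0.0614 in the exact test. The calls for these genes depended on the setting. Both passed with DESeq2's Wald test (FDR 0.0382 for *Psmc3* and 0.0414 for *Psmc5*), and with library size alone in the exact test (FDR 0.0362 and 0.0343, where 7.43% of all genes were called lower), and without parental replicate 1 (FDR 0.0147 and 0.0260, where 7.44% of all genes were called lower). Without parental replicate 3 their FDR was 0.506 and 0.455. With the other alternatives neither gene passed.

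Among the other base subunits, *Psmd1* and *Psmd2* are the large scaffold proteins and *Psmd4* is a ubiquitin receptor. The scaffold genes had the widest gap between the parental libraries. *Psmd2* was at 332 and 513 CPM in parental replicates 1 and 3, and at 393 and 395 CPM in TRC replicates 1 and 3. *Psmd1* was at 201 and 340.3 CPM in the parental libraries and at 236 and 241 CPM in the TRC libraries. In both genes the TRC libraries lay between the parental ones, and the log2 fold changes of −0.10 and −0.18 turned to 0.25 and 0.24 without parental replicate 3. *Psmd4* had no overlap between groups, with a log2 fold change of −0.32 and an FDR of 0.362.

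In the lid, which holds the deubiquitinase *Psmd14* and its partner *Psmd7*, 7 of 8 genes were below 0, with a median of −0.31, and both TRC libraries lay below both parental libraries for 5 of 8, where 30.4% of all genes tested did so. *Psmd7* was the lowest, with 168 and 206 CPM in parental replicates 1 and 3 and 136 and 124 CPM in TRC replicates 1 and 3. Its log2 fold change was −0.52 ± 0.21 (SE), with an unadjusted p of 0.0232 and an FDR of 0.106 in the exact test. *Psmd14* itself was at −0.28, FDR 0.449.

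*Psmd8*, another lid subunit, was the only expressed member that was not highest in parental replicate 3. Its log2 fold change was the highest of the 3 members above 0. It had 484 and 467 CPM in parental replicates 1 and 3 and 484 and 547 CPM in TRC replicates 1 and 3, and was highest in TRC replicate 3 rather than in parental replicate 3. The log2 fold change was 0.11 ± 0.19 (SE), FDR 0.797 in the exact test, and the groups overlapped.

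The genes *Psmd5*, *Psmd9* and *Psmd10* encode chaperones that help to assemble the base and leave before the particle is complete. Their log2 fold changes were −0.19, −0.33 and 0.07. *Psmd10* (also known as gankyrin) therefore stood slightly above 0, with overlapping groups and an FDR of 0.906.

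Levels of different genes can be compared only per length, here as CPM per kb of the principal transcript. The longest was taken where a gene has several, and the ranks depend on the length used. It was 2911 bases for *Psma2* and 1201 bases for *Psma1*, which had parental means of 152 and 149 CPM. On this scale *Psmd8* was the highest member in both groups, with a mean of 309 CPM per kb in parental cells and 335 in TRCs. The assembly chaperones were lowest in parental cells, *Psmd9* at 12.6, *Psmd10* at 17.4 and *Psmd5* at 18.7 CPM per kb. Without the chaperones, the members lay between 52.2 (*Psma2*) and 309 CPM per kb in parental cells, a range of 5.92-fold. The core had a median of 137 CPM per kb in parental cells and 118 in TRCs, and the 19S genes without the chaperones had medians of 118 and 88.4.

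The precision of 2 libraries per group limits what could be called. Standard errors of the members lay between 0.19 and 0.28 on the log2 scale. Of 6599 genes tested with a mean CPM within the range of the members, 1139 were called in either direction, and the smallest absolute log2 fold change among these was 0.58. Only *Psmc3* and *Psmc5* had a larger change than that, so a difference of the size of the members' median was not detectable for a single gene at this replication.

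**Figure D4:**
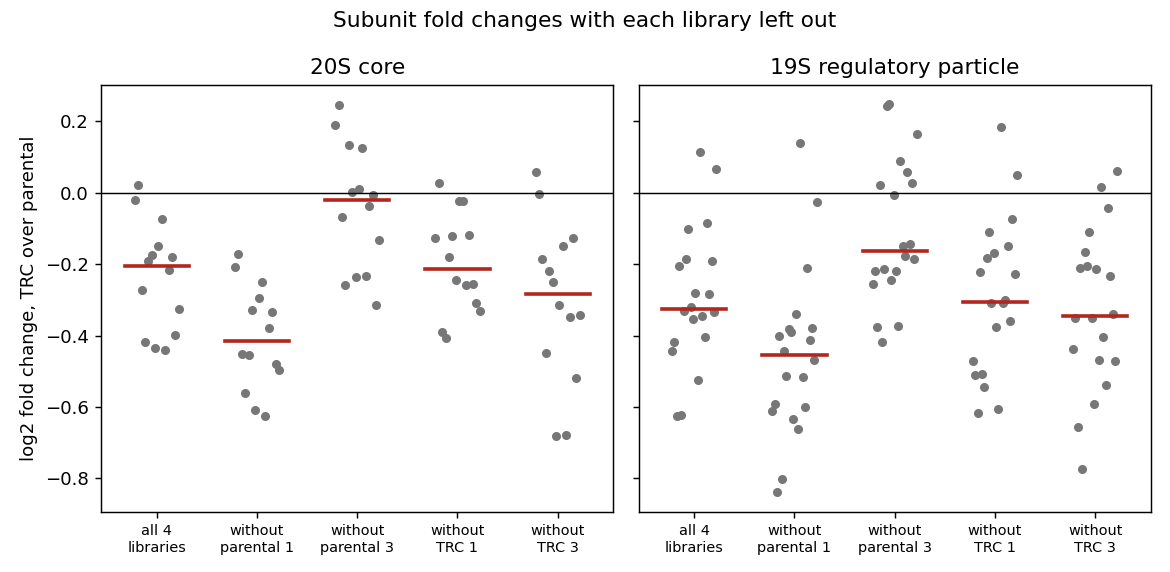
Log2 fold change of each expressed core gene (left) and 19S gene (right) in the fit to all 4 libraries and in fits with 1 library left out, with bars at the medians. Without parental replicate 3 the core median is −0.021 and 13 of the 34 genes lie above 0.

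The 3 immunoproteasome genes, which encode the catalytic subunits that interferon-induced cells use in place of the standard ones, were at far lower levels. *Psmb8* had counts of 8 and 3 in parental replicates 1 and 3, and of 21 and 6 in the TRC libraries. *Psmb9* had 6 and 3 against 10 and 7 counts in the same order, and neither gene passed the filter. *Psmb10* was at 9.06 and 15.0 CPM in the parental libraries and at 6.90 and 6.92 CPM in the TRC libraries, a log2 fold change of −0.80 ± 0.36 (SE) with an FDR of 0.164 in the exact test. Its value rested on the parental libraries, with −1.12 and an FDR of 0.0462 without replicate 1 and −0.39 and an FDR of 0.729 without replicate 3. In CPM per kb, the 3 standard catalytic genes together were between 40.4 and 63.2 times as high as the 3 immunoproteasome genes in each library.

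The genes that assemble, cap, feed or control the proteasome were taken from lists of 46 genes, of which 45 were in the count data and 1 was not analysed here. These lists also hold the 3 immunoproteasome genes described above, of which only *Psmb10* was tested. Of the 42 listed genes that were tested, 5 were called lower in TRCs and 0 higher by the exact test, where 7.05% and 8.81% of all genes tested were. Their median log2 fold change was −0.30, with 37 of 42 below 0, where 5710 of the 11483 genes tested were. As for the subunits, these values must be read beside parental replicate 3. It was the highest library for 33 of the 42, with a median log2 difference of 0.24 from parental replicate 1.

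*Adrm1* is a ubiquitin receptor of the 19S base outside the naming rule of the members, and *Uchl5* encodes the deubiquitinase that docks on it. *Adrm1* fell from 107 and 145 CPM in parental replicates 1 and 3 to 69.1 and 77.9 CPM in TRC replicates 1 and 3 (log2 fold change −0.78 ± 0.24 (SE), FDR 0.0123 in the exact test). *Uchl5* fell from 78.2 and 103 CPM to 61.4 and 43.9 CPM (−0.78 ± 0.26, FDR 0.0182). Both TRC libraries were below both parental libraries for either gene. The other tested genes of this list of 8 did not pass, and 7 of the 8 were below 0.

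*Psmg1*, a chaperone of alpha ring assembly, fell from 36.1 and 41.0 CPM in parental replicates 1 and 3 to 20.4 and 26.2 CPM in TRC replicates 1 and 3 (−0.73 ± 0.25, FDR 0.0388). It was 1 of 5 core assembly chaperones tested, of which 5 were below 0. *Ubqln4*, a shuttle factor that carries ubiquitinated proteins to the proteasome, fell from 123 and 168 CPM to 87.9 and 84.0 CPM (−0.75 ± 0.23, FDR 0.0166), as 1 of 10 genes of its list, of which 9 were below 0. The groups did not overlap for either gene.

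*Mafg*, a small Maf protein that pairs with CNC-bZIP factors, had the lowest FDR of these lists. It fell from 159.9 and 157 CPM in parental replicates 1 and 3 to 80.2 and 88.5 CPM in TRC replicates 1 and 3 (−0.91 ± 0.19, FDR 0.00115 in the exact test). Here the parental libraries were alike and parental replicate 3 was not the higher one. *Nfe2l1*, named after its values were seen, was at 344 and 226 CPM in the parental libraries and 338 and 378 CPM in the TRC libraries, with overlapping groups and an FDR of 0.429. Its log2 fold change of 0.33 was 0.66 without parental replicate 1 and 0.058 without parental replicate 3. For *Adrm1*, *Uchl5*, *Psmg1* and *Ubqln4* the call was lost with the quasi-likelihood test (FDR 0.0503 to 0.0695) and without parental replicate 3 (FDR 0.214 to 0.263), and each was also lost in at least 1 of the fits without a TRC library. The call of *Psmg1* was also lost with no filter on low counts (FDR 0.0646) and without parental replicate 1 (FDR 0.0564), and that of *Mafg* was lost only without TRC replicate 1 (FDR 0.0753).

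No gene of the list of other caps and the inhibitor passed the exact test on all 4 libraries. Its members, named after their values were seen, went in opposite directions. *Psme1* and *Psme2* encode the interferon-inducible PA28 alpha-beta cap. *Psme1* was at 40.0 and 33.1 CPM in parental replicates 1 and 3 and 59.0 and 45.0 CPM in TRC replicates 1 and 3, and *Psme2* at 34.9 and 29.8 against 49.5 and 36.5 CPM. Both TRC libraries were above both parental libraries in both genes, an order that 30.2% of all genes tested had. It is the reverse of the order found for 17 of the subunits. The log2 fold changes of *Psme1* and *Psme2* were 0.51 (FDR 0.154) and 0.41 (FDR 0.297) in the exact test. Without TRC replicate 1 they were 0.28 and 0.16. *Psme4*, the PA200 cap, and *Psme3*, the nuclear PA28 gamma cap, had log2 fold changes of −0.57 (FDR 0.0997) and −0.47 (FDR 0.166). *Psme4* passed without parental replicate 1 (−0.78, FDR 0.0272) and was at −0.31 (FDR 0.616) without parental replicate 3.

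**Figure D5:**
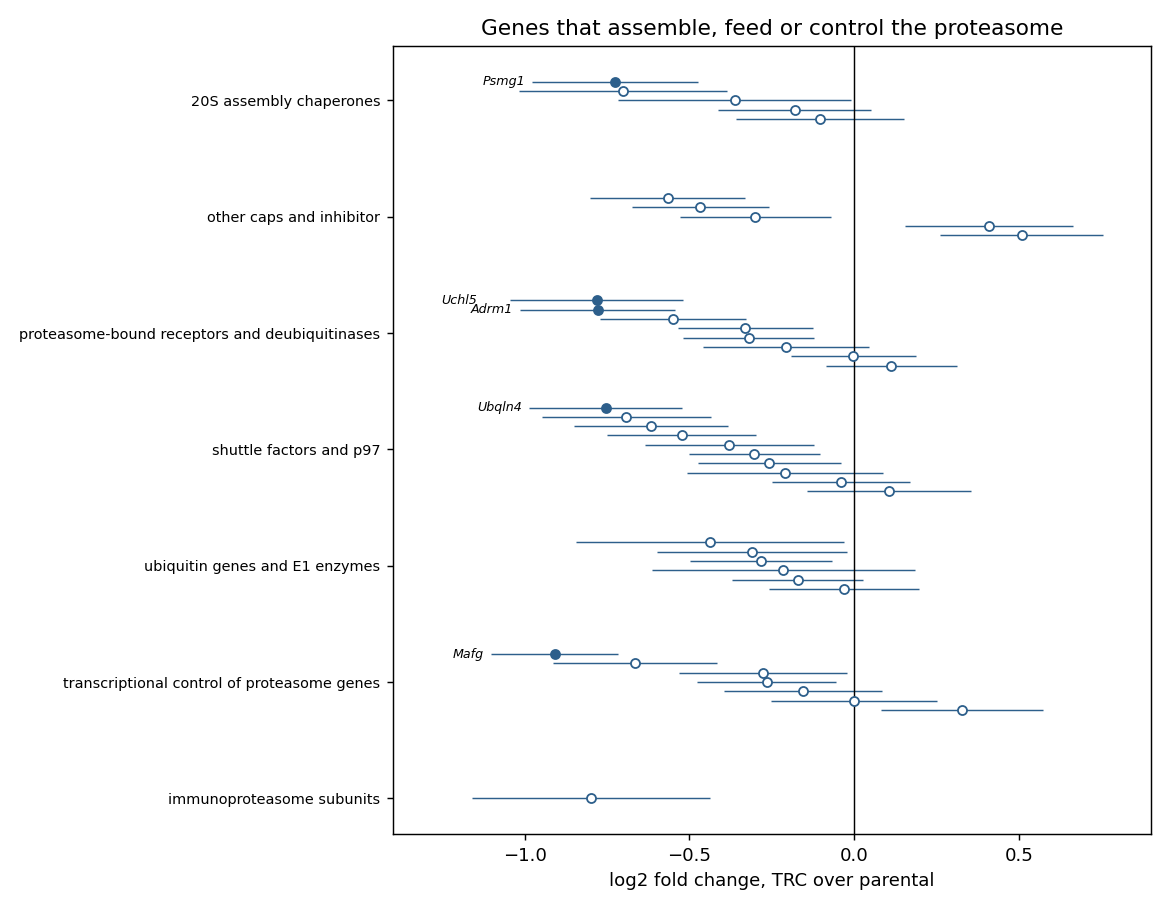
Log2 fold change of TRCs over parental cells with standard errors from DESeq2 for the 42 tested genes that are not members, grouped by list. The immunoproteasome gene *Psmb10* is among them. Filled points are the 5 genes with an FDR under 0.05. All 5 filled points lie below 0.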

How the data were processed

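RNA-seq was carried out on 2 parental and 2 TRC libraries, grouped by the labels. The authors made stranded libraries, used Trimmomatic 0.35 to trim the single-end reads and TopHat2 2.1.0 with Bowtie2 2.2.6 to align them to GRCm38, and counted reads with htseq-count, whose strand setting is not given in the sources used here. The deposited data are these counts on Ensembl genes, whole numbers and not normalized. Symbols came from GENCODE M21. Totals that are not genes were removed, among them alignments that were not unique (15.2% to 25.2% of alignments), so genes with near-identical copies can be undercounted. Requiring at least 1 CPM in 2 or more libraries left 11483 genes. TMM factors (0.957 to 1.04), tagwise dispersions and the exact test came from edgeR 4.0.16 in R 4.3.3, with Benjamini-Hochberg FDR over all genes tested and a threshold of 0.05, and standard errors from DESeq2 1.42.0. Counting error alone is small at 35948295 to 43511554 counts per library. The procedure was tested on simulated data.

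The subunit genes and lists were chosen with earlier results of these data known. Values per library were given for the catalytic genes, for the highest and lowest fold change of each particle and for genes with FDR under 0.05. *Psmc5*, *Psmd7*, *Psmd1*, *Psmd2*, *Nfe2l1* and the caps were added after their values were seen. Among lists of other genes, those with FDR under 0.05 and the 3 immunoproteasome genes were named. Alternatives were 3 filters on low counts, 2 other scalings, the quasi-likelihood test of edgeR both without a replicate block and with one, DESeq2's Wald test and each library left out in turn.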

Additional observations from a re-analysis of the deposited data

How the results depend on the processing

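The labels give both groups the replicate numbers 1 and 3, but the replicate differences of the groups had a correlation of 0.0267 over 11483 genes, so the numbers were not taken to pair the libraries. Over all genes, 810 were called lower and 1012 higher, against 487 and 567 with the quasi-likelihood test without a replicate block and 308 and 477 with the replicate block, which called 0 subunits. With the replicate block the calls of *Adrm1*, *Uchl5*, *Psmg1* and *Ubqln4* were lost too, with FDR values of 0.0542 to 0.0995. A lone library in a fit with 1 library left out is assumed to vary like the other group. These fits called 269 to 854 genes lower and 500 to 1078 higher; the lowest counts were 363 lower without parental replicate 3, 269 without TRC replicate 1 and 271 without TRC replicate 3. The core median ranged from −0.42 to −0.021 and the 19S median from −0.46 to −0.16 in them. The count of 19S genes called lower was 2 with DESeq2's Wald test and 2 with library size only, and 0 to 2 with a library left out. It was 0 with each other filter, scaling and test, and the core count was 0 in each.

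The signs of some single genes turned, and the cause was not tested. *Psma2* was at −0.0046 without a filter. With each library left out in turn, *Psma2* ranged from −0.17 (without parental replicate 1) to 0.25, and was at −0.0035 without TRC replicate 3, and *Psmd10* ranged from −0.025 (without parental replicate 1) to 0.17. The ranges were −0.21 to 0.19 for *Psma1* (0.058 without TRC replicate 3), −0.45 to 0.13 for *Psma5*, −0.33 to 0.0014 for *Psma6*, −0.31 to 0.011 for *Psmb1*, −0.25 to 0.13 for *Psmb2*, −0.40 to 0.021 for *Psmc4*, −0.51 to 0.24 for *Psmd1*, −0.38 to 0.25 for *Psmd2*, −0.21 to 0.057 for *Psmd13* and −0.38 to 0.028 for *Psmd5*, and for these genes the upper end is the value without parental replicate 3. *Sem1*, a small lid subunit outside the naming rule, ranged from −0.0023 without parental replicate 3 to 0.24.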
